A study of Mus musculus with 4 samples.

Results

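The genes described here were the nuclear-encoded subunits of respiratory complexes III, IV and V together with cytochrome c, as mRNAs in RNA from isolated mitochondria (BAT-Mito) and from a second fraction of brown adipose tissue (BAT-total) of mice. Members were taken by symbol from the protein-coding rows of the deposited gene table (names starting with Uqcr, Cox4i, Cox5, Cox6, Cox7, Cox8 or Atp5, and Cyc1 and Cycs), leaving out names that mark pseudogenes. This gave 43 of the 17259 genes listed, with 9 in complex III, 16 in complex IV, 17 in complex V and 1 for cytochrome c. Cox7b2 and Cox8c were not analysed here.

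All 4 libraries came from brown adipose tissue of animals labelled WT, with 2 libraries per fraction and the fraction as the only labelled difference. The design asked which RNAs are found with mitochondria of this tissue. The second group is called total in the titles and a total lysate in the study's supplement, while its treatment label describes tissue from which mitochondria had been removed. BAT-total held transcripts of the mitochondrial genome, with 6 such mRNAs summing to 74538 and 97287 normalised counts in replicates 1 and 2. How far mitochondria had been removed from it cannot be told from these sources, and this bears on each value of BAT-total given here. The study's mutant lines and their wild-type mice were on a 129SV background, and whether these animals were from those lines was not stated. Sex, age and the number of animals per library were not given in the sources used here, and nothing says that replicates came from separate animals, so each p-value measures only the spread between these libraries. RNase treatment of mitochondria is described in the study's methods for hearts, and whether it was used on brown fat is not given in the sources used here. Values are normalised counts of the submitters, and a pair of values is given for replicates 1 and 2 in that order.

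Mitochondrial ATP production rests on a chain of protein complexes in the inner membrane. Complex III passes electrons from ubiquinol to cytochrome c, complex IV passes them from cytochrome c to oxygen, and both pump protons. Complex V, the ATP synthase, lets protons flow back to drive ATP formation. The mitochondrial genome encodes cytochrome b of complex III, the catalytic core of complex IV and some membrane subunits of complex V, and the nucleus encodes the remaining subunits, whose proteins are imported. Brown adipocytes are rich in respiratory chain but let protons return through UCP1 to make heat, and their mitochondria hold little ATP synthase for their respiratory capacity, with the c subunit gene Atp5g1 known as a limiting step. Several complex IV subunits exist as a common isoform and an isoform typical of heart, skeletal muscle and, for some, brown fat.

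The isoform comparisons depend on reads that tell partner genes apart, so the coding sequences of the best expressed tissue isoforms and their common partners are shown, read from GENCODE M21 transcripts on GRCm38. Cox7a2, at chr9:79755361-79759878 on the minus strand, encodes the common subunit VIIa, and Cox7a1, at chr7:30184144-30186078 on the plus strand, the heart and muscle isoform. In BAT-total, Cox7a1 also gave 62.5% and 64.6% of the counts of this pair. Cox8a, at chr19:7215153-7217616 on the minus strand, encodes the common subunit VIII, and Cox8b, at chr7:140898945-140900446 on the minus strand, its heart, muscle and brown fat isoform. Capitals mark the longest run of bases that the partners of a pair share.
Cox7a2: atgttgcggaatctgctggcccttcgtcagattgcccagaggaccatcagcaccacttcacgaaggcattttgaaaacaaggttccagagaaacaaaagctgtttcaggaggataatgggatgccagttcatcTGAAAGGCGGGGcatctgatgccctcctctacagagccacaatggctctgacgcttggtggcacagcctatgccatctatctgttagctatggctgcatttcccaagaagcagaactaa
Cox7a1: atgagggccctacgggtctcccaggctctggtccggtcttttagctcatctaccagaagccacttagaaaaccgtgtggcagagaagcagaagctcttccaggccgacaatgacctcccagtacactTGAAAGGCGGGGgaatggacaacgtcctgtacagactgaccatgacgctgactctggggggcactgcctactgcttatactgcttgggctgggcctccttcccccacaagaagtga
Cox8a: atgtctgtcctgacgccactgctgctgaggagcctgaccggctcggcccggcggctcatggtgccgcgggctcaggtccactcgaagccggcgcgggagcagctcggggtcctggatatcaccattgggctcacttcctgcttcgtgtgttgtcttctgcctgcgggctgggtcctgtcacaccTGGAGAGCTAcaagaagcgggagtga
Cox8b: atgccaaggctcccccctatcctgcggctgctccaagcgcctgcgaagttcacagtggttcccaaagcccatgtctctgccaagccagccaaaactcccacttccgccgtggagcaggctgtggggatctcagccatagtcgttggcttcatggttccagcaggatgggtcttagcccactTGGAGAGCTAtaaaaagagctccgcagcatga
The longest shared run was 12 bases for the Cox7a pair and 10 bases for the Cox8 pair, against reads of 75 bases. The coding sequences were 59.0% identical in the first pair and 52.7% in the second, and no 75-base window of these 4 genes was found in another annotated transcript.

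The 3 genes for the membrane c ring of ATP synthase are the opposite case at the protein level. Atp5g1 at chr11:96068852-96075670 on the minus strand, Atp5g2 at chr15:102662864-102672352 on the minus strand and Atp5g3 at chr2:73908447-73911326 on the minus strand encode different import sequences, but their proteins end in 78 identical residues. The last 237 coding bases of each are shown, with capitals at the 64 positions where the 3 genes do not all hold the same base.
Atp5g1: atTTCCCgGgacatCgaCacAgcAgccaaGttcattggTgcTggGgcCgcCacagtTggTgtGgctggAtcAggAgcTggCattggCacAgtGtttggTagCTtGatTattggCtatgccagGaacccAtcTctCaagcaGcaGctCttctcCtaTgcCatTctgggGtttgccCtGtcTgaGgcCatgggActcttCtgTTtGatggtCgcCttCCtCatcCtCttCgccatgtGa
Atp5g2: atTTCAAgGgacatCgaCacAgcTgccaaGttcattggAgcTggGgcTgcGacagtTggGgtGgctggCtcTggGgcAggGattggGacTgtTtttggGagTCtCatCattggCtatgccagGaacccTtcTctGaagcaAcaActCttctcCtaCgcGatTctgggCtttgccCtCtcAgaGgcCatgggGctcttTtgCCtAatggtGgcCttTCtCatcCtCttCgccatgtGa
Atp5g3: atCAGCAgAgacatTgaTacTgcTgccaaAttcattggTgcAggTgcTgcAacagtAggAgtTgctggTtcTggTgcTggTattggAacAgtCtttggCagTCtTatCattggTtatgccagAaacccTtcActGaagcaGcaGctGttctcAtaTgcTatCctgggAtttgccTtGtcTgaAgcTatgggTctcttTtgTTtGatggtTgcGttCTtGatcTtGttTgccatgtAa
Reads therefore separated Atp5g1 from Atp5g3, while 86.9% of the 75-base windows of Atp5g2 were also found in transcripts annotated as Gm10175 or Gm10231. Reads that fit several positions were excluded by the submitters, so the level of Atp5g2 is uncertain.

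Values in BAT-Mito were whole multiples of what 1 read is worth, which gave 26288871 and 24910434 reads, and the normalised totals of BAT-total were 1590096 and 1905303, for which the reads are unknown. The 43 members took 614 and 1849 of the BAT-Mito reads. The median tested member had 11 reads in replicate 1 and 30.5 in replicate 2, and 35 of the 40 tested members had at least 10 reads over both libraries. A count of 0 in BAT-Mito allows up to 3 reads, or 25.0 and 20.7 normalised counts in replicates 1 and 2.

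Against the deposited scaling, nuclear subunit mRNAs of each complex were on the whole at lower values in BAT-Mito than in BAT-total, with no gene past the threshold in limma. The median log2 fold change (BAT-Mito over BAT-total, on log2 of the normalised count plus 1) was -0.98 over the 40 tested members and -1.23 over all 8215 genes tested. It was -0.79 for 9 complex III genes, -1.15 for 14 complex IV genes and -0.97 for 16 complex V genes. No difference between complexes was tested, and the ranges overlapped: from -1.64 to 0.24 in complex III, from -1.86 to 4.55 in complex IV and from -4.43 to 0.22 in complex V. In limma over all genes, 0 members were higher and 0 lower at an adjusted p under 0.05, against 0.803% and 4.41% of all genes tested, and 4 members had an unadjusted p under 0.05, of which 3 were lower, where 18.1% of all genes had one. On reads, edgeR called 0 members higher and 2 lower (all genes, 1.64% and 4.02%), and DESeq2 called 1 higher and 2 lower (all genes, 3.2% and 5.46%). The higher call, Cox6a2, passed the filter of a mean of 10 normalised counts only through BAT-Mito. The 2 lower calls were Atp5c1 and Atp5g3 in both tests, and Atp5g3 passed the filter only through BAT-total.

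Both BAT-Mito libraries lay below both BAT-total libraries for 26 of the 40 members (65.0%), against 52.1% of all genes tested. Among nuclear protein-coding genes with a mean of at least 50 normalised counts it was 62.1%, and with at least 100 it was 67.5%, so the members' share is close to that of genes of such levels. Both BAT-Mito libraries lay above for 2 members (5%), against 8.59% of all genes, and the groups overlapped for 12 members. Complex IV had 12 of 14 genes below, complex III 6 of 9 and complex V 8 of 16. The deposited scaling sets the zero of these values. TMM factors put the median over all tested genes at -0.90, median ratios over nuclear genes at -0.62 and CPM over all genes at -7.15. Set against that median, the members stood 0.25 above it as deposited, 0.27 above it under TMM and 0.29 above it under median ratios. Under CPM they stood at -0.45 relative to it, and without BAT-Mito replicate 2 at -0.50, against 0.62 without replicate 1, so their place among all genes changed sign. With a mean of at least 50 it was -0.027.

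**Figure D1:**
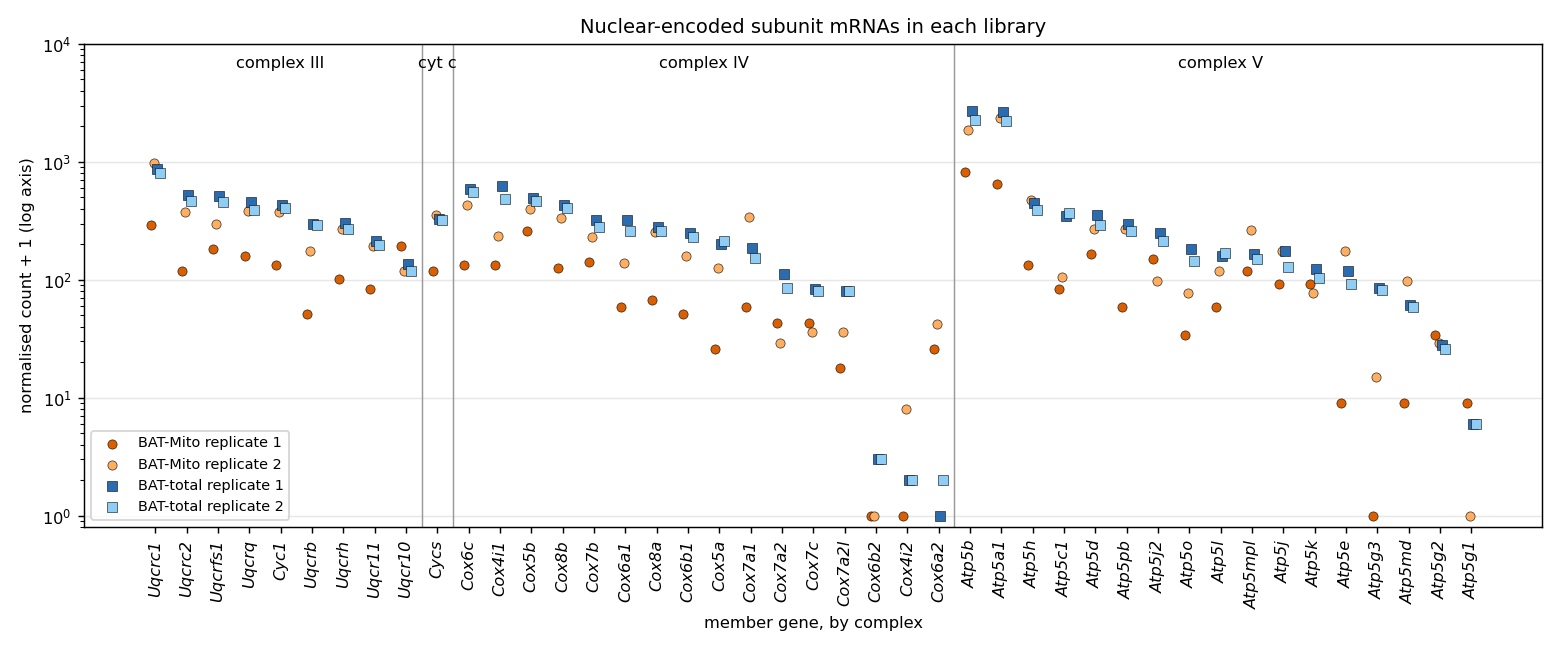
Normalised count plus 1 (log axis) of each of the 43 members in the 4 libraries, grouped by complex and ordered by the mean of BAT-total; circles are BAT-Mito and squares BAT-total. The BAT-total replicates nearly coincide, while for most members BAT-Mito replicate 1 lies lowest, and Cox6a2 is the gene with both circles far above both squares.

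The 2 BAT-Mito libraries differed widely from each other. The summed level of all members was 5109 and 12763 normalised counts in BAT-Mito, and 16166 and 14232 in BAT-total. Of the tested members, 34 of 40 were higher in BAT-Mito replicate 2 than in replicate 1, and 9 exceeded both BAT-total libraries in replicate 2, against 3 in replicate 1. Without BAT-Mito replicate 1 the median log2 fold change of members was -0.30, and without replicate 2 it was -1.55. For 32 of the 40 tested members the log2 fold change moved by over 1.5 times, or changed sign, without one of the BAT-Mito libraries. For complexes III, IV and V, leaving out replicate 1 gave -0.13, -0.50 and -0.15, and leaving out replicate 2 gave -1.50, -1.87 and -1.61. Across the 40 members, log2 levels correlated with r = 0.77 (rho = 0.74) between the BAT-Mito replicates and with r = 0.994 between the BAT-total replicates, a description over genes that share libraries and depth.

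A share of the nuclear protein-coding counts does not depend on the mitochondrial reads. The members made up 1.24% (95% Wilson interval 1.15 to 1.34) of these reads in BAT-Mito replicate 1 and 3.17% (3.04 to 3.32) in replicate 2, and 2.51% and 2.25% of the counts in BAT-total. The BAT-Mito values lie on both sides of BAT-total, and the mean difference of -0.17 percentage points was smaller than the SD of 1.37 between the BAT-Mito libraries (n = 2). Of all genes, the members took 0.00234% and 0.00742% of reads in BAT-Mito against 1.02% and 0.747% in BAT-total. Intervals cover counting error only.

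The balance of the complexes was nearly the same in every library. Complex V supplied 49.2% and 50.6% of the members' reads in BAT-Mito and 50.3% and 49.0% in BAT-total, with overlapping groups. Complex III supplied 25.6% and 24.8% against 23.1% and 23.9%, so both BAT-Mito values were higher, by 1.72 percentage points on average. Complex IV supplied 23.0% and 21.8% against 24.6% and 24.9%, lower in both BAT-Mito libraries, with a mean difference of -2.37 points. The 95% intervals of the BAT-Mito shares span 22.3 to 29.2% and 22.9 to 26.8% for complex III and 19.8 to 26.5% and 20.0 to 23.7% for complex IV. Both BAT-total values of complex III lay inside these intervals, and those of complex IV lay inside the first and above the second. Without the most abundant gene of each complex (Uqcrc1, Cox6c and Atp5b), the difference for complex III was 0.54 points and its groups overlapped, while complex IV supplied 26.9% and 24.9% against 28.2% in each BAT-total library, a difference of -2.31 points.

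**Figure D2:**
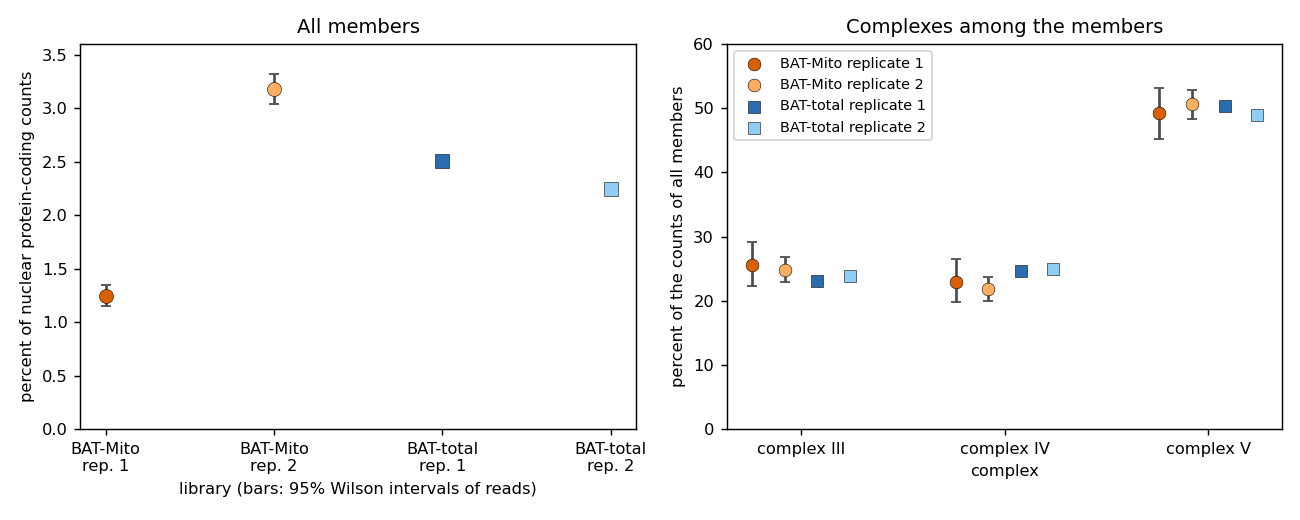
Left, percent of nuclear protein-coding counts taken by all members in each library; right, percent of the members' counts taken by complexes III, IV and V; bars are 95% Wilson intervals of the BAT-Mito reads. The members' share was 1.24% and 3.17% in the BAT-Mito libraries, on both sides of BAT-total, while complex V stayed between 49.0% and 50.6% in all 4 libraries.

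In complex III, the core proteins anchor the dimer on the matrix side. Uqcrc1 (core protein 1) gave 291 and 987 normalised counts in BAT-Mito and 869 and 805 in BAT-total, so one BAT-Mito library lay below and the other above both BAT-total values. Uqcrc2 (core protein 2) gave 117 and 373 in BAT-Mito against 519 and 469. The redox subunits are cytochrome c1 and the Rieske iron-sulphur protein. Cyc1 (cytochrome c1) was at 133 and 373 against 430 and 405, and Uqcrfs1 (the Rieske protein) at 183 and 297 against 514 and 453. Both redox genes, unlike Uqcrc1, were below BAT-total in each BAT-Mito library, with log2 fold changes of -0.90 (SE 0.70) and -1.05 (SE 0.49), neither past the limma threshold (adjusted p = 0.479 and 0.332). Without BAT-Mito replicate 1 these were -0.16 and -0.70, and without replicate 2 they were -1.64 and -1.39.

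The 5 small accessory subunits of complex III had log2 fold changes from -1.64 to 0.24. Uqcrb, the ubiquinone-binding subunit, was the lowest of complex III, at 50 and 173 against 294 and 290, with 29.1% of its 75-base windows also in pseudogene transcripts. Uqcr11 was at 83 and 193 against 212 and 198. Uqcr10 was the only complex III gene with a positive value, at 191 and 117 against 136 and 118 (log2 fold change 0.24, SE 0.49, limma adjusted p = 0.764), and its groups overlapped. Its value turned negative with CPM and without BAT-Mito replicate 1. Cycs, cytochrome c itself, the mobile electron carrier between complexes III and IV, was at 117 and 352 against 326 and 323, with a log2 fold change of -0.67 (SE 0.73, limma adjusted p = 0.580) that was 0.12 without BAT-Mito replicate 1 and -1.46 without replicate 2.

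Complex IV takes electrons through its mitochondrially encoded core, around which the nuclear subunits sit. Cox4i1, the common subunit IV, was at 133 and 235 in BAT-Mito against 626 and 486 in BAT-total, and its groups were well apart (log2 fold change -1.64, SE 0.53, limma adjusted p = 0.271). Cox5a, a matrix-side subunit, was at 25 and 124 against 201 and 211, from 3 and 18 reads, among the 5 lowest log2 fold changes of members with at least 10 BAT-Mito reads in all. Cox5b, the zinc-binding subunit, was at 258 and 400 against 494 and 462, closer to BAT-total. Each of these 3 lay below BAT-total in both BAT-Mito libraries, like 52.1% of all genes tested, although Cox5b had a log2 fold change of 0.08 under median ratios.

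The common isoforms of the smaller subunits showed the same direction. Cox6a1 was at 58 and 138 against 321 and 257, and Cox6b1, which faces the intermembrane space, at 50 and 159 against 250 and 230. Cox7a2 was at 42 and 28 against 112 and 84, with only 5 and 4 reads. Cox7b, an X-linked subunit, was at 141 and 228 against 323 and 280. Cox7a2l, which bridges complexes III and IV in supercomplexes, was at 17 and 35 against 80 and 79, from 2 and 5 reads. All 5 were lower in both BAT-Mito libraries, as were 52.1% of all genes tested and 62.1% of nuclear protein-coding genes with a mean of at least 50. Their log2 fold changes ran from -1.67 (Cox6a1) to -0.74 (Cox7b), with none past the threshold in limma.

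Cox8b and Cox7a1 had more counts than their common partners in BAT-total. Per kb of exon, Cox8b had the highest level of all members in BAT-total, at 1162.5 ± 45.2 normalised counts per kb (SD, n = 2), followed by Atp5a1 at 778 ± 95.6 and Atp5b at 584 ± 68.9. With the length of a single transcript in place of the exon union, Atp5b came first and Cox8b second. Its partner Cox8a, at 437 ± 26.3 per kb, was lower in both BAT-total libraries. In counts, Cox8b was at 125 and 331 in BAT-Mito against 430 and 407, and Cox8a at 67 and 255 against 282 and 259. Both isoforms were lower in BAT-Mito than in BAT-total in each library.

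Cox8b supplied 65.2% (95% Wilson interval 44.9 to 81.2) and 56.5% (45.9 to 66.5) of the Cox8a and Cox8b reads in BAT-Mito, and 60.4% and 61.1% of counts in BAT-total. The groups overlapped, and the difference in the mean log2 ratio was 0.0040 (0.632 against 0.628), far below its spread of 0.26 between replicates. Cox7a1 was at 58 and 338 in BAT-Mito against 187 and 153 in BAT-total, with a log2 fold change of -0.27 (SE 1.06) whose sign changed with TMM, median ratios and the count tests. It supplied 58.3% (32.0 to 80.7) and 92.5% (82.1 to 97.0) of the Cox7a1 and Cox7a2 reads in BAT-Mito, against 62.5% and 64.6%. One BAT-Mito library thus lay below BAT-total and the other far above, and the difference in log2 ratio of 1.21 became -0.34 without BAT-Mito replicate 2. The exact two-sided permutation test gave p = 1.00 for both pairs.

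Cox6a2, the heart and skeletal muscle isoform of subunit VIa, which is not the main form in brown fat, had the highest log2 fold change of the 40 tested members. The gene (ENSMUSG00000030785) lies at chr7:128205435-128206387 on the minus strand, and 10.3% of its exon bases are also annotated to Itgad on the other strand. It was at 25 and 41 normalised counts in BAT-Mito, from 3 and 6 reads, and at 0 and 1 in BAT-total. Both BAT-Mito libraries lay above both BAT-total libraries. It passed the filter on low values only through BAT-Mito, so among the tested genes it had to differ. Its log2 fold change was 4.55 (SE 0.62), 2.01 with a pseudocount of 10 and 0.32 with CPM, so its size depends on these choices. The reads behind its BAT-total values are unknown, and no counting interval can be given. With that limit, the adjusted p was 0.0629 in limma, 0.111 in edgeR and 0.0136 in DESeq2, and over all alternatives it ranged from 0.0136 to 0.805. Cox6a2 supplied 30.0% (10.8 to 60.3) and 23.1% (11.03 to 42.1) of the Cox6a1 and Cox6a2 reads in BAT-Mito, against 0% and 0.388% of counts in BAT-total. The log2 ratio differed by 6.22, or by 3.58 with a pseudocount of 10 since BAT-total held 0 and 1 counts, with an exact permutation p = 0.333, the smallest that 2 against 2 libraries can give, and 0.556 adjusted over the 5 ratios compared.

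Markers of other tissues also differed between these libraries. The 10 skeletal muscle markers summed to 3895 and 1249 normalised counts in BAT-Mito and 351 and 744 in BAT-total, 9 of 10 were higher in both BAT-Mito libraries and none was at 0 in any library. Acta1, skeletal actin, was at 250 and 110 against 52 and 103. Of the 7 heart markers, 2 were among the genes analysed and summed to 208 and 648 against 2 and 1. Myh6, the cardiac myosin heavy chain, was at 183 and 531 against 2 and 0, and Actc1, cardiac actin, at 25 and 117 against 0 and 1. Their part in the Cox6a2, Cox7a1 and Cox8b values was not tested.

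The labelled tissue was clear from its own markers, and another tissue was seen beside it. All 10 brown adipocyte markers were above 0 in every library and summed to 3604 and 8882 in BAT-Mito against 17142 and 15069, and Ucp1 was at 1290 and 3554 against 4819 and 4185. Like the members, these markers were higher in BAT-Mito replicate 2 than in replicate 1, for 8 of 10 genes. The 9 liver markers analysed summed to 12125 and 1001 against 284 and 69, with albumin (Alb) at 4943 and 393 against 97 and 3, and 8 of 9 were higher in both BAT-Mito libraries. In BAT-total replicate 2, Ahsg, Apoa2, Cps1, Serpina1c and Ttr were at 0. Whether liver RNA bears on the lower member levels of BAT-Mito replicate 1 was not tested. In such bulk libraries fewer cells of a type and less RNA per cell cannot be told apart.

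Other tissue isoforms were at or near the limit of detection. Cox4i2, the lung isoform of subunit IV, was at 0 and 7 against 1 and 1, from 0 and 1 reads in BAT-Mito. Cox6b2, the testis isoform of subunit VIb, was listed at 0 and 0 against 2 and 2. Neither passed the filter of a mean of 10 normalised counts, and no fold is given. Each pair together had 16 and 35 reads (Cox4i1 with Cox4i2) and 6 and 23 reads (Cox6b1 with Cox6b2) in BAT-Mito, so a small share of the rare isoform could go undetected there.

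**Figure D3:**
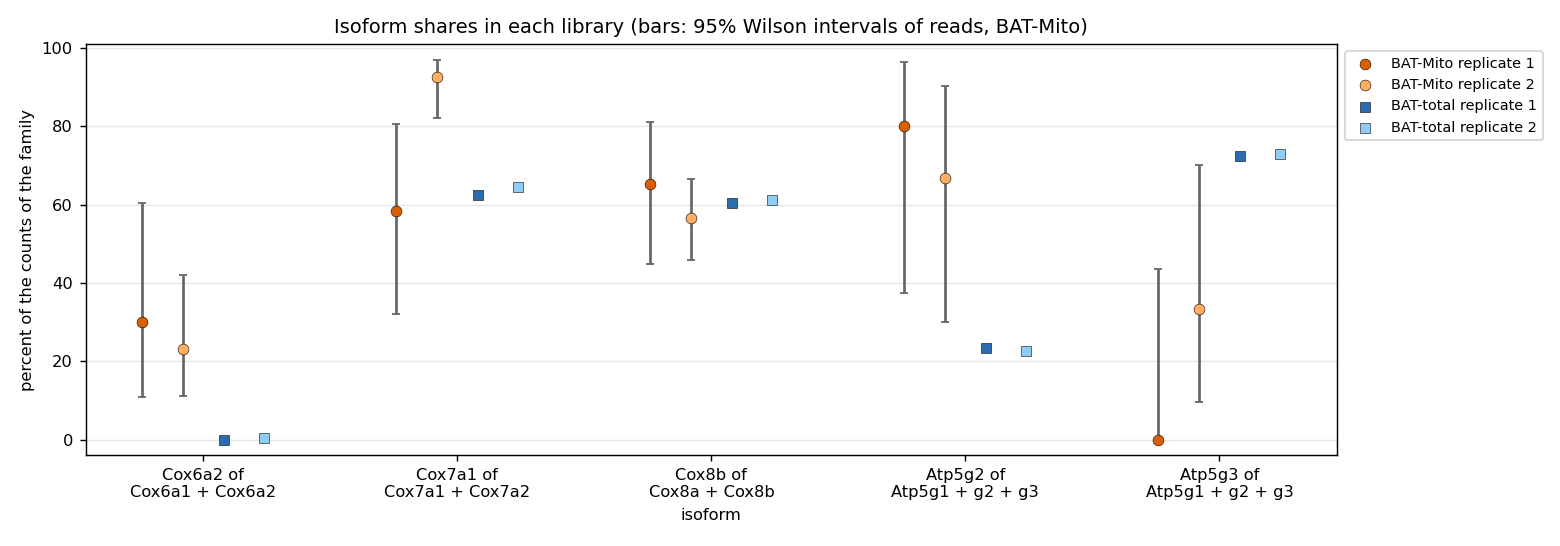
Percent of the counts of each isoform family that a given isoform supplied in the 4 libraries; bars are 95% Wilson intervals of the BAT-Mito reads, and BAT-total points carry no interval. Cox8b lies between 56.5% and 65.2% in all libraries, Cox7a1 reaches 92.5% in BAT-Mito replicate 2 only, Cox6a2 is at 30.0% and 23.1% in BAT-Mito and at 0% and 0.388% in BAT-total, and the wide bars of the Atp5g genes rest on 5 and 6 reads.

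In complex V, 2 genes of the catalytic F1 head had the highest normalised counts of all members in BAT-total, without division by length. Atp5a1 (alpha subunit) was at 649 and 2353 normalised counts in BAT-Mito against 2651 and 2227 in BAT-total, and Atp5b (the catalytic beta subunit) at 824 and 1877 against 2683 and 2270. Together they supplied 28.8% and 33.2% of the members' reads in BAT-Mito and 33.0% and 31.6% of the counts in BAT-total. Atp5b was lower in both BAT-Mito libraries, whereas Atp5a1 in BAT-Mito replicate 2 lay between the BAT-total values. Their log2 fold changes were -0.97 (SE 0.83) and -0.99 (SE 0.62), and neither passed in limma (adjusted p = 0.506 and 0.412). Without BAT-Mito replicate 1 they were -0.046 for Atp5a1 and -0.40 for Atp5b, and without replicate 2 they were -1.90 and -1.58.

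Atp5c1, the gamma subunit that forms the rotating central shaft, differed from its F1 partners in having 2 close BAT-Mito values. It was at 83 and 104 (10 and 15 reads) against 349 and 370, so the groups were far apart. Its log2 fold change was -1.94 (SE 0.43), with an adjusted p of 0.178 in limma, 0.0394 in edgeR and 0.00374 in DESeq2, and from 1.16e-04 to 0.844 over all alternatives. Both count tests called it lower, and without either BAT-Mito library the value was -1.78 or -2.10. The other F1 genes, Atp5d (delta) and Atp5e (epsilon), had log2 fold changes of -0.60 and -1.40. The value of Atp5e was -0.13 by edgeR, -0.20 by DESeq2, 0.73 without BAT-Mito replicate 1 and -3.54 without replicate 2. This gene, named after its values were seen, was at 8 and 173 against 118 and 91, from 1 and 25 reads, a wide gap between BAT-Mito replicates, as was also seen for Atp5md at 8 and 97 against 60 and 58.

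The peripheral stalk holds the F1 head in place against the membrane. Among all 8215 genes tested the groups overlapped for 3231, and among the 40 tested members for 12. In the stalk they overlapped for 3 of its 4 genes. Atp5o, the subunit that confers oligomycin sensitivity, was the exception, at 33 and 76 against 182 and 144, with 47.9% of its exon bases also annotated to other genes. Atp5h (subunit d) was at 133 and 476 against 450 and 387, and Atp5j (subunit F6) at 92 and 173 against 175 and 127. Atp5j was among the members nearest to 0, with a log2 fold change of -0.24 (SE 0.56, limma adjusted p = 0.790), positive with TMM, with median ratios and without BAT-Mito replicate 1. Atp5h was positive without BAT-Mito replicate 1. Atp5pb, the stalk subunit b, had a log2 fold change of -1.15.

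The c ring genes, whose sequences are printed above, gave log2 fold changes of opposite sign. Atp5g3 was at 0 and 14 normalised counts in BAT-Mito, from 0 and 2 reads, and at 84 and 81 in BAT-total. Its mean in BAT-Mito was 8.48% of that in BAT-total, with an exact Poisson 95% interval of 1.03 to 30.7% from the 2 reads, and the fitted log2 fold change of -4.43 depends on the pseudocount. Atp5g3 passed the filter on low values only through BAT-total, so among the tested genes it had to be lower. With that limit, its adjusted p was 0.283 in limma, 0.0420 in edgeR and 0.0451 in DESeq2. Atp5g2 was at 33 and 28 (4 and 4 reads) against 27 and 25, the second member with both BAT-Mito values above both BAT-total values, by a log2 fold change of 0.22 (SE 0.42, limma adjusted p = 0.742) that was negative with CPM. Atp5g1 was at 8 and 0 against 5 and 5, under the filter.

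Within the c ring family, Atp5g3 supplied 72.4% and 73.0% of the counts in BAT-total, against 0 of 5 reads (95% Wilson interval 0 to 43.4%) and 2 of 6 reads (9.68 to 70.0%) in BAT-Mito. Atp5g2 supplied 23.3% and 22.5% in BAT-total, against 4 of 5 reads (37.6 to 96.4%) and 4 of 6 reads (30.0 to 90.3%). Neither interval for Atp5g3 reached its BAT-total share. The log2 ratios to the family sum differed by -3.0 for Atp5g3 (-1.32 with a pseudocount of 10) and 1.65 for Atp5g2 (1.43), each without overlap and with an exact permutation p = 0.333, the smallest this design allows (0.556 adjusted). Without BAT-Mito replicate 1 the difference for Atp5g3 was -1.06, and without replicate 2 it was -4.94. The Atp5g1 values, 1 and 0 reads in BAT-Mito, were at the floor and its ratio was not compared.

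The remaining membrane subunits of ATP synthase lay close to or somewhat below BAT-total. Atp5k (subunit e), needed for dimers of the synthase, was at 92 and 76 against 123 and 103. Atp5mpl, a small subunit associated with the membrane part, was at 117 and 262 against 166 and 149, with a log2 fold change of 0.15 (SE 0.60, limma adjusted p = 0.871) that was negative with CPM and without BAT-Mito replicate 2. Its groups overlapped. For Atp5k both BAT-Mito values were lower, and its log2 fold change was -0.42 (SE 0.43), positive with median ratios. The other 3 membrane genes (Atp5j2, Atp5l and Atp5md) had log2 fold changes from -1.01 to -0.93, and 63.4% of the 75-base windows of Atp5l were also in pseudogene transcripts. Atp5md stood at -0.079 by edgeR, -0.15 by DESeq2, 0.71 without BAT-Mito replicate 1 and -2.74 without replicate 2.

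**Figure D4:**
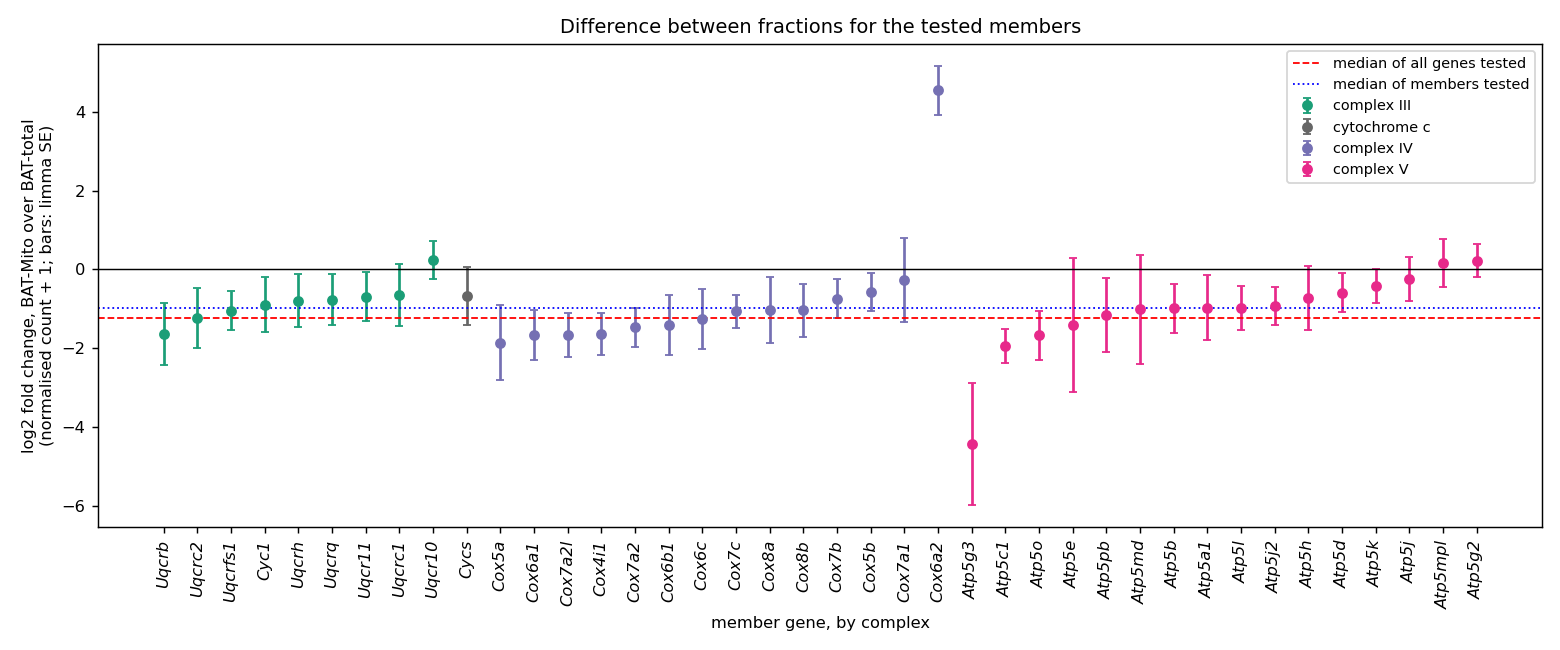
Log2 fold change (BAT-Mito over BAT-total, normalised count plus 1) with its limma SE for the 40 tested members, by complex; dashed line, median of all genes tested (-1.23); dotted line, median of tested members (-0.98). Cox6a2 at 4.55 and Atp5g3 at -4.43 lie farthest out, and these rest on 9 and 2 reads in BAT-Mito.

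Levels in the fractions followed each other across members, as a description over 40 genes that share libraries: the mean log2 level in BAT-Mito correlated with that in BAT-total with r = 0.78 (rho = 0.87). The log2 fold change showed little relation to the coding length (r = -0.15) or to the share of 75-base windows found elsewhere (r = 0.06). Against the level in BAT-total it gave r = -0.50, but rho = -0.088. That level is itself part of the log2 fold change, so a negative value arises in part by construction. Cox6a2, far out in both, passed the filter only through BAT-Mito. Of the 43 members, 18 had any such shared window and 3 (Atp5g2, Atp5l and Cox7c) had over 50% shared. A processed pseudogene of Cox6c, listed as Cox6c2, was itself at 33 and 145 in BAT-Mito against 172 and 145 in BAT-total, beside Cox6c, an accessory complex IV subunit, at 133 and 428 against 586 and 552, and 10.7% of the windows of Cox6c also occur elsewhere.

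The mitochondrially encoded partners of the same complexes were far higher in BAT-Mito. All 6 (mt-Cytb of complex III, mt-Co1, mt-Co2 and mt-Co3 of complex IV, mt-Atp6 and mt-Atp8 of complex V) passed the test, with log2 fold changes from 7.11 (mt-Co3) to 7.73 (mt-Atp6) and a limma adjusted p of 0.0249 each. For example, mt-Co1, the catalytic subunit of complex IV, was at 7055860 and 4880009 against 28781 and 37725. Unlike 34 of the 40 tested nuclear members, these were higher in BAT-Mito replicate 1 than in replicate 2. With CPM over all genes, which counts these same transcripts in the total, the median of the nuclear members was -7.60.

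Among 33 listed assembly factors and associated proteins of complexes III, IV and V, 29 were tested, with a median log2 fold change of -1.54. Most of them help to build the complexes without staying in them, but the list also holds Ndufa4, a subunit now counted to complex IV, and Atpif1, the inhibitor of the ATP synthase. In limma 0 were higher and 3 lower, where 4.41% of all genes were called lower, and 4 had an unadjusted p under 0.05, each of them lower, where 18.1% of all genes had one. By edgeR and DESeq2 0 were higher, against 1.64% and 3.2% of all genes. Surf1, a complex IV assembly factor, was at 0 and 0 in BAT-Mito against 27 and 29 in BAT-total, Cox20, a chaperone of subunit II, at 0 and 0 against 21 and 19, and Coa7 at 0 and 0 against 23 and 17. All 3 had no read in BAT-Mito, where equal values of 0 leave no spread, and none passed in edgeR (adjusted p = 0.0725, 0.112 and 0.114). They passed the filter on low values only through BAT-total, so among the tested genes they had to be lower. Uqcc1, a complex III assembly factor at 0 and 14 against 107 and 105, was the gene that edgeR (adjusted p = 0.0323) and DESeq2 (adjusted p = 0.0224) called lower, 1 of 29 against 4.02% and 5.46% of all genes. It had 0 and 2 BAT-Mito reads and likewise passed the filter only through BAT-total. Of all 362 genes called lower in limma, 359 had 0 reads in both BAT-Mito libraries.

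Other nuclear groups are set beside the members here. The 36 complex I subunits had a median log2 fold change of -0.80 with 20 below BAT-total in both BAT-Mito libraries (55.6%, against 52.1% of all genes), and 77 cytosolic ribosomal protein genes a median of -0.30 with 23 below (29.9%). The order of members and complex I depended on the method, with medians of -0.71 and -0.75 by edgeR, -0.73 and -0.76 by DESeq2, and -0.296 and -0.301 without BAT-Mito replicate 1. In limma 0 genes of either group were called, with 8 of 36 complex I and 1 of 77 ribosomal protein genes at an unadjusted p under 0.05, against 18.1% of all genes. By edgeR 0 were called, against 4.02% of all genes lower, and by DESeq2 1 complex I gene was lower, against 5.46%. These medians are descriptions, and the differences between the groups were not tested. As a share of nuclear protein-coding counts, complex I subunits took 0.706% and 1.49% in BAT-Mito against 1.17% and 1.04%, overlapping like the members, while ribosomal protein genes took 1.44% and 2.02% against 1.24% and 1.10%.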

How the data were processed

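RNA of isolated mitochondria and of BAT-total (a total lysate per the study's supplement, tissue minus mitochondria per the labels) was sequenced with a stranded total RNA kit for low input and single-end reads of 75 bases, per the study's methods. The fragmentation time of mitochondrial RNA was shortened to suit its size. The submitters' processing notes name Trimmomatic 0.39, STAR 2.7.10a, featureCounts 2.0.2 and DESeq2 1.30.1 with mm10, and reads of several positions or genes were excluded. Whether strand was used in counting is not given in the sources used here. The deposited values are a signal, gene counts divided by size factors by the authors and rounded to whole numbers. In BAT-Mito they were multiples of 8.32 and 6.90 units per read, so reads were recovered for 100% of genes, each within the rounding of the table. For BAT-total no such step was found.

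Genes with a mean of at least 10 were tested with limma 3.58.1 (R 4.3.3) on log2(value + 1), Benjamini-Hochberg adjusted over 8215 genes, with a call at 0.05. The study used DESeq2, and edgeR 4.0.16 and DESeq2 1.42.0 were run on recovered BAT-Mito reads, with BAT-total values taken as reads and the deposited scaling kept. DESeq2 left an adjusted p for 6306 genes. The tests were also run on simulated data with known changes, where the other genes were left unchanged and BAT-total values were taken as reads. In the real data the median log2 fold change was -1.23 over all genes and the BAT-total depth is unknown. The simulation therefore does not show how the tests perform on them. Isoform ratios were compared within libraries with an exact permutation test (scipy 1.17.1), and 3 rare isoforms at the floor of 3 reads were left out, leaving 5 ratios. Intervals are Wilson's at 95% (statsmodels 0.14.6).

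Members, lists and tests were chosen with earlier results of these data known. Genes are named by rule: isoform families, core subunits, the 5 highest and 5 lowest log2 fold changes among members with at least 10 BAT-Mito reads, and the 3 highest per kb of exon in BAT-total in each complex. Ndufa4 and assembly factors were kept out of the complex I list. Coordinates of 99.1% of listed genes matched GENCODE M21 (GRCm38). Alternatives are given in the closing section.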

Additional observations from a re-analysis of the deposited data

How the results depend on the processing

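Reads limit most of these values: 2 libraries per fraction, a median of 11 and 30.5 reads per member in BAT-Mito, and an unknown read depth in BAT-total. The cause of the changes below was not tested. Genes called higher (66) numbered 13 with CPM, 202 with DESeq2, 135 with edgeR and 143 over all genes, and genes called lower (362) numbered 7963 with CPM, 3587 over all genes, 11 with a mean of at least 50 and 1 with a pseudocount of 10. Members called higher (0) numbered 1 with DESeq2, 1 over all genes and 1 with median ratios, Cox6a2 each time. Members called lower (0) numbered 39 with CPM, 2 each with DESeq2, edgeR and all genes and 1 with limma's trend. Of the 8215 genes tested, 7963 were called lower with CPM, 330 (4.02%) with edgeR and 452 with limma's trend. With median ratios 69 of them were called higher. DESeq2 called 3.2% of genes higher and 5.46% lower. With at least 10 BAT-Mito reads, a filter added after the data were seen, the members called were 0 in limma, 1 of 35 lower in edgeR (4.02% of all genes) and 1 lower in DESeq2 (5.46%).

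Median log2 fold changes with CPM were -7.60 for members, -7.50, -7.83 and -7.59 for complexes III, IV and V, and -7.15 for all genes. With median ratios they were -0.33 for members, -0.14 for complex III, -0.51 for complex IV, -0.32 for complex V and -0.62 for all genes. For all genes the median was -0.81 with DESeq2, -0.80 with edgeR, -0.90 with TMM, -0.96 with a mean of at least 50 and -0.73 with a pseudocount of 10. Relative to all genes, the members stood at -0.17 with a pseudocount of 10. Without the most abundant genes, the share of complex III differed by 0.54 points and that of complex V by 1.28. With a pseudocount of 10 the ratio differences were 3.58 for Cox6a2, 1.05 for Cox7a1, -0.025 for Cox8b, 1.43 for Atp5g2 and -1.32 for Atp5g3.

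Values of single genes that changed sign were Uqcr10 (-6.46), Atp5g2 (-6.15) and Atp5mpl (-6.55) with CPM, Uqcrc1 (0.012), Cox5b (0.081), Atp5d (0.055), Cox7a1 (0.38), Atp5j (0.41) and Atp5k (0.22) with median ratios, Cox7a1 (0.080) and Atp5j (0.11) with TMM, and Cox7a1 with DESeq2 (0.23) and edgeR (0.26). Over the values without each library, some ranges crossed 0: Uqcr10 from -0.11 to 0.59, Uqcrc1 from -1.52 to 0.24, Cox7a1 from -1.53 to 0.99, Atp5h from -1.64 to 0.19, Atp5j from -0.69 to 0.21, Cycs from -1.46 to 0.12, Atp5e from -3.54 to 0.73, Atp5md from -2.74 to 0.71 and Atp5mpl from -0.42 to 0.73, the extremes each without 1 of the BAT-Mito libraries.

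Leaving out each library in turn, genes called higher ranged from 0 to 622, genes lower from 0 to 3864, members higher from 0 to 1 and members lower from 0 to 31. The calls were 0 without either BAT-total library, and without BAT-Mito replicate 1 or 2 the members lower were 7 and 31 of 40, against 41.1% and 47.0% of all genes, where the lone library is assumed to vary like BAT-total. Medians ranged from -1.55 to -0.30 for members, -1.50 to -0.13, -1.87 to -0.50 and -1.61 to -0.15 for complexes III, IV and V, and -1.26 to -0.92 for all genes. Share differences ranged from -1.14 to 0.80 points for members, 1.31 to 2.12, -2.96 to -1.79 and -0.44 to 0.99 for the complexes. Ratio differences ranged from 5.56 to 6.88 (Cox6a2), -0.34 to 2.75 (Cox7a1), -0.25 to 0.26 (Cox8b), 1.52 to 1.78 (Atp5g2) and -4.94 to -1.06 (Atp5g3).

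With the replicate number as a block, 0 genes were called higher and 0 lower. The labels state no pairing, and the replicate differences of the groups correlated at 0.112 over 8215 genes, from 1 such correlation.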

Other observations

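Rows named as pseudogenes of the members were also listed. Atp5pb-ps was at 42 and 62 normalised counts in BAT-Mito and 51 and 38 in BAT-total, from 5 and 9 BAT-Mito reads. Cox7c-ps1 was at 8 and 7 against 13 and 12, and Cox5b-ps, listed as protein-coding and left out by its name, at 0 and 7 against 14 and 14. The groups overlapped for Atp5pb-ps, and for Cox7c-ps1 and Cox5b-ps both BAT-Mito values were lower.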
